A study of Mus musculus with 24 samples.

Results

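The genes described here are the CC and CXC chemokines and their receptors, taken as every named gene on the array whose symbol is Ccl, Cxcl, Ccr or Cxcr followed by a number and at most a letter. The rule found 48 genes among 21370 named genes: 20 Ccl and 12 Cxcl ligands, and 10 Ccr and 6 Cxcr receptors. Where a gene had several probes, the brightest on average over the 24 arrays was read, and 7 of the 48 genes had more than 1 probe. RefSeq lists 54 symbols that fit the rule, and Ccl21a, Ccl21b, Ccl21c, Ccl21d, Ccl27b and Cxcl11 had no matched probe and were not analysed here. RNA came from 4 organs (liver, brain, heart and skeletal muscle), all taken from the same 6 female mice. Mice labelled RAP1 MUT carried the Rap1 I312R knockin allele (KI, mice A and B at 15 months and C at 14 months), a germline change made with CRISPR/Cas9 that leaves the Rap1 gene (Terf2ip) transcribed. Their WT controls were mice D and E at 15 months and F at 14 months. The paper describes the knockin mice of its array comparison as homozygous (KI/KI) and the controls as WT littermates. The allele had been backcrossed 4 times to C57BL/6N (C57BL6 in the labels), and the labels name no treatment and no other allele. The comparisons asked where each chemokine gene is transcribed among the 4 tissues, and whether its level differed between KI and WT.

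Chemokines are small secreted proteins that bind to cell surface sugars and guide leukocytes along a gradient. They are named by the spacing of conserved cysteines near the amino end, which are adjacent in the CC family and separated by another residue in the CXC family. Their receptors pass through the membrane several times and couple to inhibitory G proteins, and many ligands share a receptor. Some ligands are made constantly and place cells in lymphoid organs, bone marrow or skin. Others are induced in resident macrophages, endothelium, fibroblasts and hepatocytes by tumour necrosis factor, interleukins or interferons through NF-kappaB, STAT and IRF proteins.

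A level in this text is the log2 processed intensity of a probe minus the 75th percentile of all probes of the same array, so 0 stands for a probe at that percentile. Levels were compared between arrays for the same probe only. The 75th percentile itself ranged from 269.5 to 2198.4 intensity units, and 49.4 to 68.4% of probes per array were marked well above background by the scanning software. The 8 marker genes of each tissue (hepatocyte, neuron, cardiac and skeletal muscle) averaged higher on every array of that tissue than on any other array, but 5 arrays also carried markers of other cells. The 8 hepatocyte genes averaged 4.56 in the brain of KI mouse C and −3.87 to −1.49 in the other brains. The 8 skeletal muscle genes averaged 1.65 in the liver of KI mouse C and at most −3.73 in the other livers. The 7 neutrophil genes averaged 3.74 in the muscle of KI mouse B and 3.71 in that of WT mouse D, against at most −1.63 in the other muscles, and the 10 mammary epithelial genes averaged −0.83 in the muscle of KI mouse B and at most −3.86 elsewhere in muscle. The heart of KI mouse B stood apart in B cell genes, whose values are given with the lymphocyte receptors. Terf2ip was well above background on all arrays, with KI minus WT between −0.33 and −0.07 in the 4 tissues. The knockin is a missense change, so these probes do not check the genotype labels.

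Most of the family was measurable in at least 1 tissue. Of the 48 genes, 14 were well above background on all 24 arrays. By tissue, 24 genes were well above background on all 6 liver arrays, 28 on all 6 brain arrays, 29 on all 6 heart arrays and 18 on all 6 muscle arrays. As shares of the 48 these counts can be set against the shares of all genes on the array, which were 62.5% for liver, 73% for brain, 67.4% for heart and 60.9% for muscle. The 8 genes that were not well above background on any array were the ligands Ccl1, Ccl20, Ccl22, Ccl26, Cxcl2, Cxcl3 and Cxcl15 and the receptor Ccr4. Cxcl2 and Cxcl3 attract neutrophils, Ccl20 is the ligand of Ccr6, Ccl22 is a ligand of Ccr4, and Cxcl15 is known from lung. Cxcl17, Ccr1, Cxcr1 and Cxcr2 were measured on some arrays only and could not be compared between tissues. The remaining 36 genes, 24 ligands and 12 receptors, were tested, since at least 1 of the 8 combinations of tissue and genotype had them well above background on each of its 3 arrays. The dimmest level marked well above background averaged −5.89 in brain arrays, −5.12 in hearts, −4.81 in livers and −4.18 in muscles, so the limit for dim genes lay highest in muscle.

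A gene was called highest in a tissue when it was above each of the other 3 tissues at an adjusted p under 0.05 (limma over 24 arrays, Benjamini-Hochberg over all 17299 genes tested) and every one of the 6 arrays of that tissue measured it well above background. By this rule 24 of the 36 genes had a highest tissue, a share close to that over all genes tested, whose parts by tissue follow. Liver was highest for 12 of them (33.3%, against 22.7% of all genes tested), brain for 4 (11.1%, against 21.1%), heart for 5 (13.9%, against 9.39%) and muscle for 3 (8.33%, against 15.8%). The ligands were divided among all tissues, with 20 of 24 called, whereas 4 of 12 receptors were called. Several of the uncalled receptors were dim, and the part of signal strength in this split was not tested. All tissues came from whole organs, in which fewer cells of a type and less RNA per cell cannot be told apart. Tissue and slide overlap in this series, since all liver arrays lay on 1 slide and all muscle arrays on another. With the slide as a block the counts were 5 for liver, 3 for brain, 2 for heart and 1 for muscle. Within slides that held more than 1 tissue, 105 of 108 differences between tissues had the sign found over all arrays. These were liver with brain, brain with heart, and muscle with heart, so liver was never compared with heart or muscle within a slide. The same arrays enter the differences over all arrays, so this count is not a separate check on the slides.

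**Figure D1:**
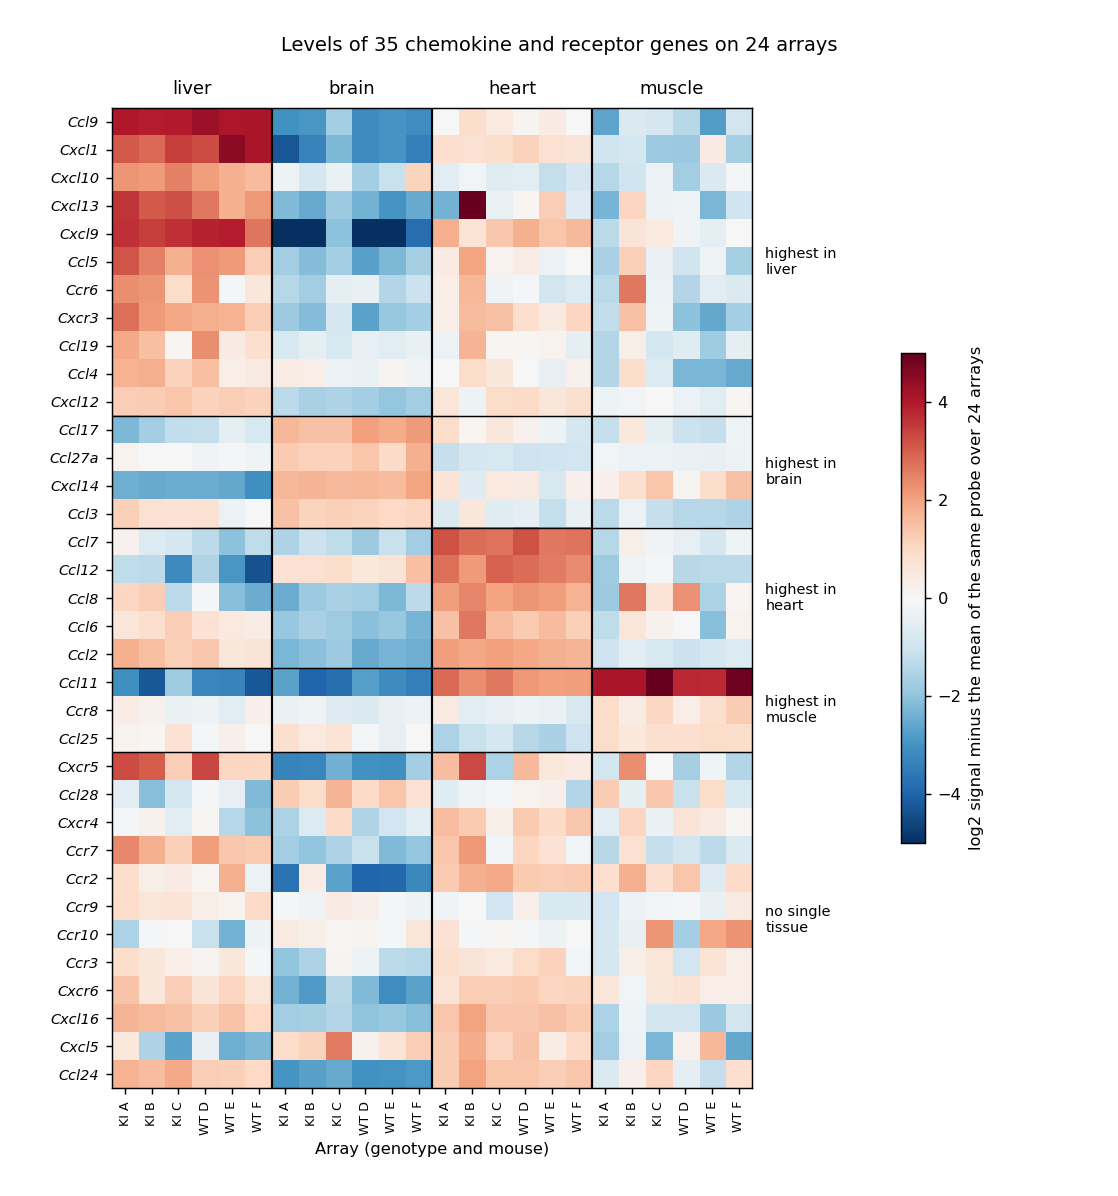
Level of 35 of the 36 tested genes on each of the 24 arrays, shown as the log2 signal minus the mean of the same probe over all arrays (colour scale from −5 to 5, with values beyond it drawn at its ends). Columns are arrays by tissue, genotype and mouse, and rows are grouped by the tissue in which the gene was called highest, with 11 genes drawn for liver, 4 for brain, 5 for heart, 3 for muscle and 12 for no single tissue.

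In the liver the ligands that stood furthest above the other tissues were Ccl9, a macrophage product that binds Ccr1, and Cxcl1, which recruits neutrophils through Cxcr2. Ccl9 ranged from 5.08 to 5.44 in liver with a median of 5.17, and from 1.18 to 2.01 in heart with a median of 1.42. The ranges did not overlap, and the liver level was 13.2-fold that of the heart (log2 difference 3.72, SE 0.33, adjusted p = 4.77e-09). Cxcl1 ranged from −0.22 to 1.47 in liver and from −2.42 to −1.90 in heart, and was well above background on only 2 of 6 arrays in brain and in muscle. It was 6.49-fold higher in liver than in heart (log2 difference 2.70, SE 0.36, adjusted p = 1.46e-06). Its receptor Cxcr2 was well above background on 4 of 6 liver arrays and 3 of 6 heart arrays, on no brain array, and on 1 muscle array, that of WT mouse D at −3.36, which also carried the neutrophil genes. The muscle of KI mouse B carried the neutrophil genes too, but Cxcr2 was not well above background there. The part of neutrophils in the Cxcr2 signal was not tested.

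Both measured interferon-induced ligands of Cxcr3, which draw activated T cells and natural killer cells, were highest in liver. Cxcl9 had a level of 0.85 to 2.09 in liver, with a median of 1.81, and of −1.14 to −0.01 in heart. It was 4.26-fold higher in liver than in heart (log2 difference 2.09, SE 0.56, adjusted p = 0.00226), and its second probe gave a difference of 2.03. In brain Cxcl9 was well above background in KI mouse C at −3.88 and in WT mouse F at −5.65 and on no other array. Cxcl10 ranged from 0.55 to 1.51 in liver, and its brain levels were −2.71 to −1.29 in 5 mice and 0.09 in WT mouse F. Liver exceeded brain, the next tissue, by 5.97-fold (log2 difference 2.58, SE 0.36, adjusted p = 2.33e-06). Their receptor Cxcr3 was highest in liver too, at −1.91 to −0.41 against −2.83 to −1.55 in heart, a difference of 0.98 (SE 0.37, adjusted p = 0.0225) with overlapping ranges.

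The bases before the start sites of Cxcl10 and Cxcl1 are shown because both genes are textbook targets of NF-kappaB and both were highest in liver. Sequences are 150 bases ending just before the RefSeq start on GRCm38.p6, with capitals marking a match to the NF-kappaB consensus or to the AP-1 letters TGANTCA on either strand. The Cxcl10 sequence lies at chr5:92348890-92349039 on the minus strand and holds both motifs. The Cxcl1 sequence lies at chr5:90891095-90891244 on the plus strand and holds the NF-kappaB consensus.
Cxcl10: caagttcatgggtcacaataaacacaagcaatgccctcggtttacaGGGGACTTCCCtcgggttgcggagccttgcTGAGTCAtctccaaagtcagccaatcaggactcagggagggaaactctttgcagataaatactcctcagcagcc
Cxcl1: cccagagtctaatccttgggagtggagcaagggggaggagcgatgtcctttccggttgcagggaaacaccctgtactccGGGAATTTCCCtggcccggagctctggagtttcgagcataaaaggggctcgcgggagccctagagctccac
Promoter sequence was at hand for 34 of the 48 genes. Over 250 bases before the start, the NF-kappaB consensus occurred in 9 of the 34 (26.5%, against 7.01% of 27025 promoters), namely Ccl1, Ccl9, Ccl20, Cxcl1, Cxcl2, Cxcl3, Cxcl10, Ccr1 and Ccr3. The IRF pair GAAANNGAA occurred in 8 (23.5%, against 7.16%), the TATA box letters TATAAA in 8 (23.5%, against 13%), TGANTCA in 4 (11.8%, against 6.87%) and the STAT letters TTCNNNGAA in 3 (8.82%, against 7.18%). Of the 9 genes with the NF-kappaB consensus, 5 (Ccl1, Ccl20, Cxcl2, Cxcl3 and Ccr1) were not tested between tissues for want of signal. A match describes letters in the sequence and not a bound site.

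The homeostatic ligands, which position cells at rest, were spread over the tissues. Cxcl12 holds blood stem cells and B cell precursors in place through Cxcr4, and its level was 5.95 to 6.19 in liver, 4.55 to 5.74 in heart, 4.27 to 4.88 in muscle and 2.85 to 3.47 in brain. Liver and heart did not overlap, although the difference was small (0.64, SE 0.15, adjusted p = 0.000947) and was 2.22 with the second probe. That call was lost with the deposited scores, with quantile normalization and with the slide as a block. Cxcr4 was not called: it ranged from −2.93 to −1.68 in heart and from −3.76 to −2.13 in muscle, a difference of 0.89 (SE 0.41, adjusted p = 0.0663). Its highest brain level was −2.26, in KI mouse C, against −4.80 to −3.75 in the other brains.

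Cxcl13, which draws B cells into follicles through Cxcr5, had a liver level of −2.08 to −0.30 and was well above background on 5 of 6 heart arrays, 1 brain array and 1 muscle array. The heart of KI mouse B reached 1.21, whereas the other hearts lay between −6.24 and −2.64. Liver exceeded heart by 2.23 (SE 0.86, adjusted p = 0.0258). Ccl19, which brings T cells and dendritic cells to lymph nodes through Ccr7, ranged from −0.99 to 1.26 in liver and from −1.52 to 0.64 in heart, so the ranges overlapped at a difference of 0.96 (SE 0.41, adjusted p = 0.0414). Ccl19 has near-identical pseudogenes in the mouse genome, so its probe may also read their transcripts. Both calls were lost without mouse A, without mouse D or without mouse F.

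The CC ligands Ccl3, Ccl4 and Ccl5, made by T cells, natural killer cells and macrophages, differed in their highest tissue. Ccl5 ranged from 1.45 to 3.37 in liver, from −0.08 to 2.19 in heart, from −1.44 to 1.39 in muscle and from −2.51 to −1.43 in brain. Liver exceeded heart by 1.74 (SE 0.42, adjusted p = 0.000939), and the top level in heart and in muscle was in KI mouse B each time. Ccl4 was at −3.39 to −1.91 in liver and −4.11 to −2.80 in heart, a difference of 0.95 (SE 0.31, adjusted p = 0.00928). The annotated spans of Ccl3 and Ccl4 overlap in RefSeq, as do those of Cxcl10 and Art3. Ccl3 was instead highest in brain, at −3.64 to −3.15 against −4.93 to −3.41 in liver. That difference was 0.64 (SE 0.24, adjusted p = 0.0187) with overlapping ranges, and it turned to −0.28 after normexp background correction. Ccl3 was not well above background on any muscle array, which puts brain at least 1.64-fold above muscle, taking the dimmest level marked well above background on each muscle array as the bound.

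The heart was highest for 5 genes, and all were CC ligands known for drawing monocytes and macrophages. Ccl7 ranged from −0.10 to 0.45 in heart and from −4.17 to −2.45 in muscle, with no overlap, and was 10.1-fold higher in heart (log2 difference 3.33, SE 0.26, adjusted p = 3.09e-09). Ccl12 ranged from −0.61 to 0.21 in heart and from −2.21 to −1.23 in brain, a difference of 1.75 (SE 0.42, adjusted p = 0.00083). Ccl2, the main ligand of Ccr2, was at 0.76 to 1.16 in heart, −0.38 to 0.83 in liver, −2.02 to −1.49 in muscle and −3.48 to −2.75 in brain. Heart exceeded liver by 0.74 (SE 0.14, adjusted p = 9.88e-05), with 1 liver, that of KI mouse A, reaching the range of the hearts. Ccl6, a macrophage product, was at 2.19 to 3.62 in heart and 1.35 to 2.21 in liver (difference 0.93, SE 0.35, adjusted p = 0.023).

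Ccl8 ranged from 0.38 to 1.08 in heart but from −3.18 to 1.28 in muscle. The 2 highest muscles were KI mouse B at 1.28 and WT mouse D at 0.92, the same 2 arrays that carried neutrophil genes, and the other muscles lay between −3.18 and −0.68. Heart exceeded muscle by 1.72 (SE 0.69, adjusted p = 0.0373), and the part of those other cells was not tested. Without mouse F neither Ccl6 nor Ccl8 was called and 3 heart genes were. Ccr2, the receptor of Ccl2, Ccl7 and Ccl12 on monocytes, was at −1.40 to −0.73 in heart and −3.26 to −0.82 in muscle, and the difference of 0.61 (SE 0.52) did not pass the test (adjusted p = 0.32). In brain Ccr2 lay at −2.24 in KI mouse B and between −6.59 and −5.27 in the other mice.

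Ccl8 and Ccl12 are neighbours on chromosome 11 and their start regions are shown as a pair of heart-highest genes that hold a TATA box. Both sequences are on the plus strand of GRCm38.p6, at chr11:82115035-82115184 for Ccl8 and chr11:82101695-82101844 for Ccl12, with TATAAA in capitals.
Ccl8: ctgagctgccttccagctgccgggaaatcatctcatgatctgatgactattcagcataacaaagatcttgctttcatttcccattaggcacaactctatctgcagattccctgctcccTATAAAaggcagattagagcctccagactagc
Ccl12: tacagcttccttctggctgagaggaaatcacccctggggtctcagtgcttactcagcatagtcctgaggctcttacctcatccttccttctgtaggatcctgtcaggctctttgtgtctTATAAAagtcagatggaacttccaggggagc
The TATA letters begin 32 bases before the start in Ccl8 and 31 bases before it in Ccl12. No other of the searched motifs occurred in either printed sequence.

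Ccl11, or eotaxin, attracts eosinophils through Ccr3 and was the clearest muscle gene. Its level was 0.73 to 1.96 in muscle and −0.95 to −0.17 in heart, without overlap (log2 difference 1.90, SE 0.34, adjusted p = 9.22e-05), a 3.74-fold difference. None of the liver arrays and 1 of the brain arrays measured it well above background. Taking the dimmest level marked well above background on each liver array as the bound, muscle was at least 66.8-fold and heart at least 17.9-fold above liver. Ccl25, best known from thymus and gut, was at 1.42 to 1.83 in muscle and 0.49 to 1.71 in brain (difference 0.55, SE 0.14, adjusted p = 0.00168). The difference came mainly from WT mice, with means of 1.77 in muscle and 0.75 in brain, against 1.65 and 1.56 in KI mice. The Ccl25 call was lost with the mean of all probes and with the slide as a block. Ccr8, a receptor of T cell subsets, was dim everywhere, with means of −2.55 in muscle and −3.40 in liver and overlapping ranges (difference 0.85, SE 0.21, adjusted p = 0.00133). Its second probe gave muscle minus liver of −0.18 and was well above background on at most 1 array per tissue.

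Brain was highest for Ccl17, Ccl27a and Cxcl14 besides Ccl3. Cxcl14, a ligand of epithelia and some neurons, was at 4.40 to 4.80 in brain, 2.99 to 4.30 in muscle, 2.04 to 3.54 in heart and −0.22 to 0.39 in liver. Brain exceeded muscle by 0.87 (SE 0.27, adjusted p = 0.00601). Ccl17, which attracts T cells that carry Ccr4, was at −2.28 to −1.62 in brain and −4.57 to −2.81 in heart, without overlap (difference 1.66, SE 0.27, adjusted p = 1.37e-05). Ccl27a, known as a skin chemokine, was at 4.07 to 4.90 in brain and 2.88 to 3.27 in liver (difference 1.34, SE 0.11, adjusted p = 9.21e-10). Ccl27a overlaps the gene Il11ra1 in RefSeq, and a further probe of Ccl27a gave brain minus liver of 4.34, so the probes disagree in size while they share the direction.

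**Figure D2:**
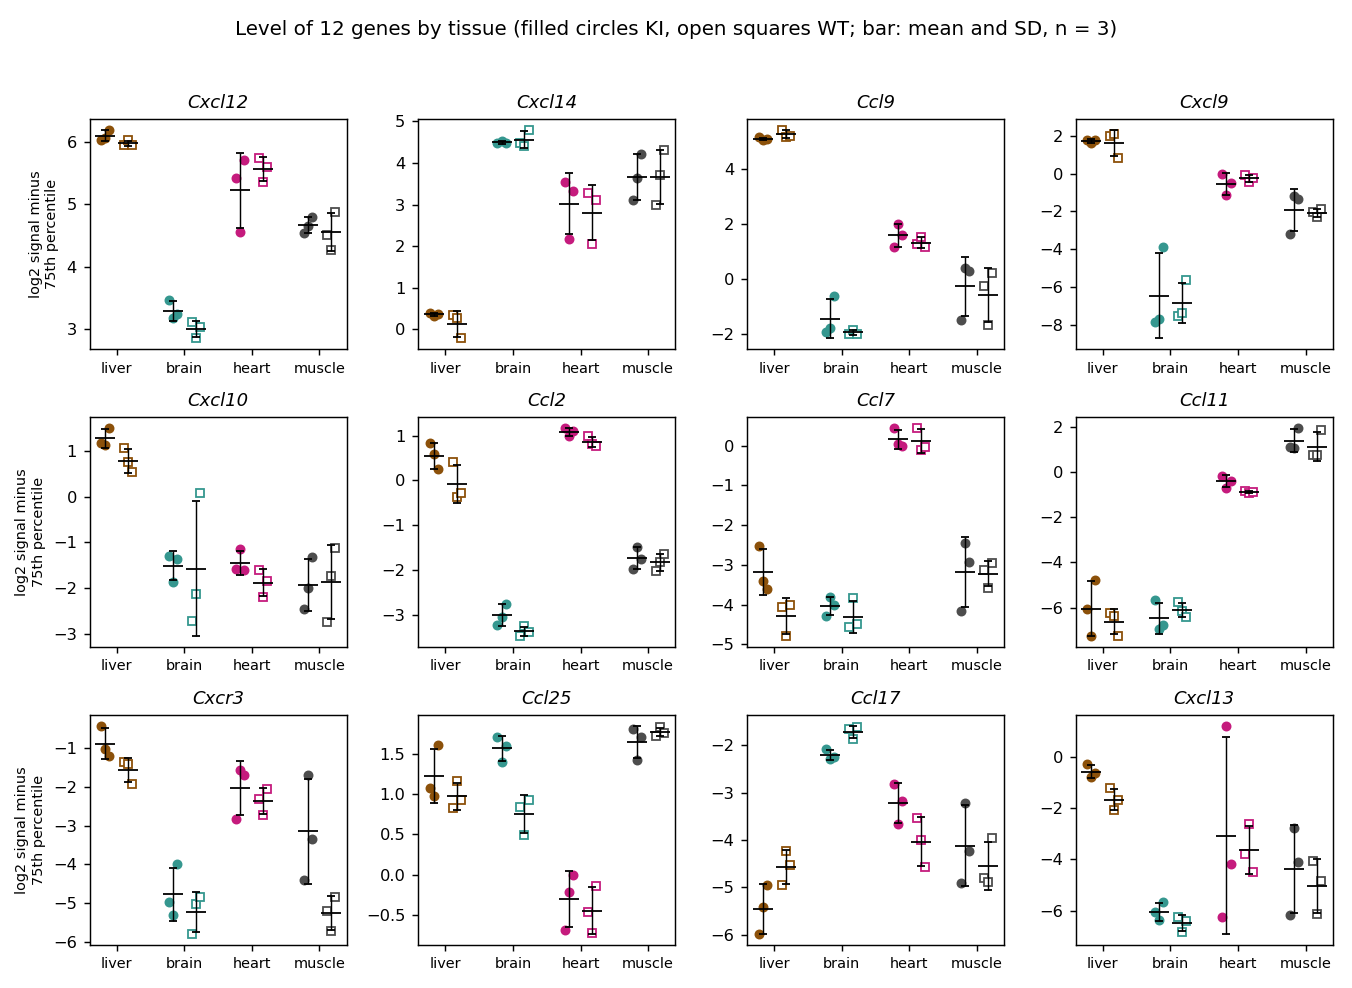
Levels of 12 genes by tissue and genotype (log2 signal minus the 75th percentile of the array). Filled circles are the 3 KI mice, open squares the 3 WT mice, and bars give mean and SD. Each panel has its own axis, and a reader should see Ccl9 highest in liver, Ccl7 in heart, Ccl11 in muscle and Cxcl14 in brain in both genotypes.

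Of the 12 receptors tested, 8 were called highest in no tissue. One of them, Ccr9, passed the test for liver against each other tissue (liver minus brain 0.58, SE 0.23, adjusted p = 0.0236) and was not called because 5 of the 6 liver arrays measured it well above background. Ccr3 (eosinophils), Ccr9 and Ccr10 (gut and skin lymphocytes) were dim, with tissue means between −5.99 and −3.33. Cxcr6, a receptor of memory T cells and natural killer T cells, was at −1.01 to −0.40 in heart and −1.14 to −0.26 in liver, and heart minus liver was 0.18 (SE 0.23, adjusted p = 0.49). Its ligand Cxcl16 gave the same pair, at 0.45 to 1.18 in heart and 0.17 to 0.84 in liver (difference 0.08, SE 0.20, adjusted p = 0.745). Both were lower in brain than in every other tissue. Ccl24, a further eotaxin, was likewise near equal in heart and liver (difference 0.0017, SE 0.28, adjusted p = 0.996) and lowest in brain at −4.45 to −3.93. Cxcl5, a neutrophil ligand of epithelia, was at −3.34 to −1.85 in heart and −3.49 to −1.14 in brain, with KI mouse C the highest brain (heart minus brain 0.027, SE 0.64, adjusted p = 0.97). Ccl28, a mucosal ligand of Ccr10, was highest in mean in brain, at −4.15 to −3.15, and did not pass against muscle (difference 0.95, SE 0.46, adjusted p = 0.0612).

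The receptors that guide lymphocytes to lymphoid tissue differed widely between single arrays of a tissue. Ccr6, found on B cells and some T cells, was highest in liver (liver minus heart 1.34, SE 0.56, adjusted p = 0.0379), but its liver levels were −0.74, −0.88 and −0.84 in mice A, B and D and −2.14, −3.14 and −2.52 in C, E and F. Cxcr5, the B cell receptor of Cxcl13, was at −1.30, −1.55 and −1.23 in livers A, B and D and at −3.33, −3.55 and −3.53 in the others. The B cell gene Ms4a1 divided the livers in the same way, at −0.36 to 0.18 in A, B and D and −2.21 to −1.75 in the others. This division crosses the genotypes. Ccr7, which leads T cells and dendritic cells to lymph nodes, was at −1.41 to −0.20 in liver and −2.76 to −0.43 in heart, and the difference of 0.85 did not pass the test (SE 0.40, adjusted p = 0.0606).

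The heart of KI mouse B held the highest level among hearts of Cxcl13 (1.21), Ccl19 (0.64), Ccr6 (−1.42), Ccr7 (−0.43) and Cxcr5 (−1.27), as well as of Ms4a1 (−0.04). The 7 B cell genes averaged −1.82 on that array, with 6 well above background, and −3.41 to −2.51 in the other hearts, with 4 to 7 well above background. The muscle of KI mouse B likewise held the highest muscle level of Ccr6 (−0.42), Ccr7 (−1.83), Cxcr5 (−2.26) and Cxcr3 (−1.69), beside a T cell list mean of −0.82 against −3.48 to −2.36 in the other muscles. The part of lymphocytes in these levels was not tested. Cxcr5 was not well above background on any brain array, which puts liver at least 11.1-fold above brain. Without the 5 arrays that carried markers of other cells, Ccr7 and Cxcr5 were also called highest in liver and Cxcr4 in heart, and Ccl6 in heart was no longer called.

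**Figure D3:**
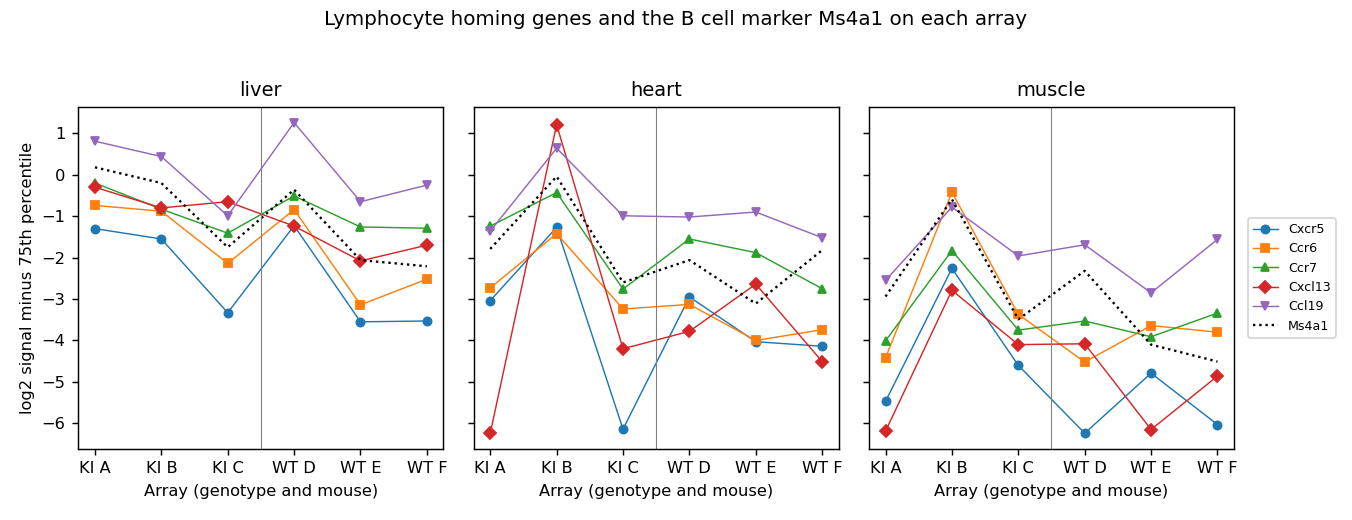
Levels of 5 lymphocyte homing genes and of the B cell marker Ms4a1 (log2 signal minus the 75th percentile of the array) on each liver, heart and muscle array. Lines join arrays of different mice for legibility only. The livers of mice A, B and D sit above those of C, E and F in Cxcr5 and Ccr6, and mouse B is highest in heart and muscle for both.

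Neighbouring genes did not share a highest tissue throughout. Along chromosome 11 the order was Cxcl16, Ccl2, Ccl7, Ccl11, Ccl12, Ccl8, Ccl1, Ccl5, Ccl9, Ccl6, Ccl3, Ccl4, Ccr7 and Ccr10. Among them Ccl2, Ccl7, Ccl12 and Ccl8 were highest in heart around the muscle gene Ccl11, while Ccl5, Ccl9 and Ccl4 were highest in liver beside the heart gene Ccl6 and the brain gene Ccl3. On chromosome 5, Cxcl1, Cxcl9, Cxcl10 and Cxcl13 were the called genes and all were highest in liver, while Cxcl5 and Ccl24 had no single tissue. Of 29 known pairs of ligand and receptor, 18 had both members tested and 6 had both called highest in a tissue. Among these, Cxcl9 and Cxcl10 were highest in the same tissue as their receptor Cxcr3, the liver. Liver was also the highest tissue for 12 of the 24 called genes, and the Cxcr3 call was lost without mouse A, D or E. Ccl8 (heart) and its receptor Ccr8 (muscle) were highest in different tissues.

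**Figure D4:**
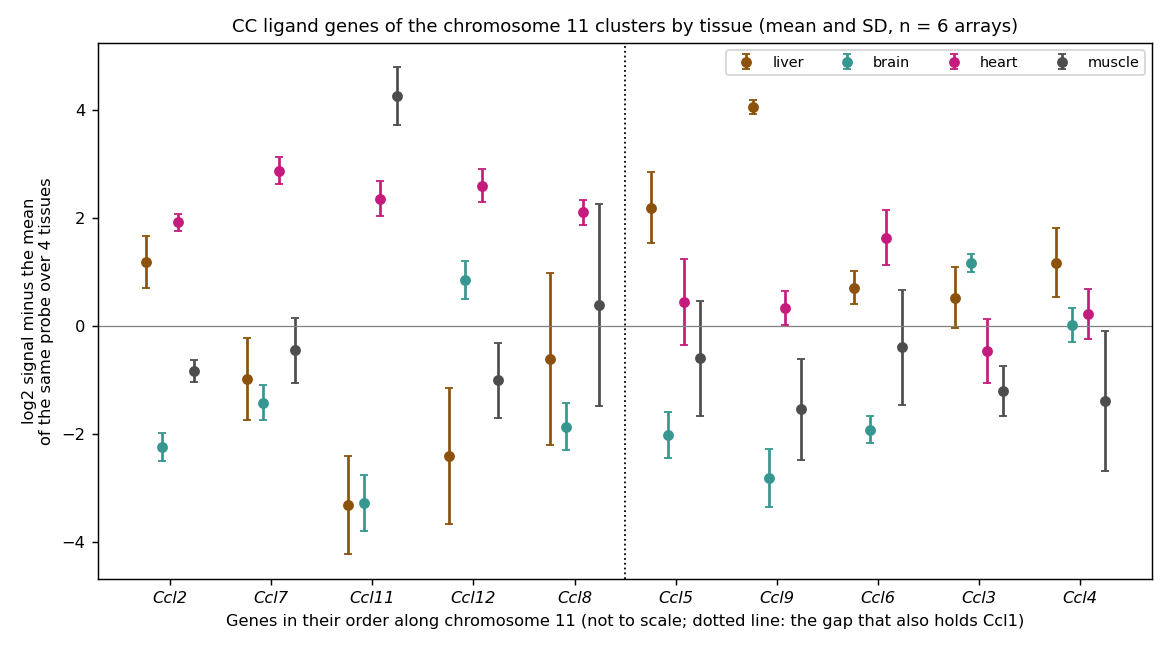
Tissue levels of 10 CC ligand genes in their order on chromosome 11, as the log2 signal minus the mean of the same probe over the 4 tissues (points are means and bars SDs of 6 arrays). Heart is highest for 4 of the first 5 genes, with muscle highest for Ccl11, and liver is highest for 3 of the last 5.

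The call of a highest tissue held under all 18 alternatives for 10 of the 24 genes. These were Ccl9, Cxcl1, Cxcl9 and Cxcl10 in liver, Ccl17, Ccl27a and Cxcl14 in brain, Ccl7 and Ccl12 in heart, and Ccl11 in muscle. Among liver genes, 5 calls (Ccl4, Ccl19, Ccr6, Cxcl13 and Cxcr3) were lost without mouse D, which left 7.

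Between genotypes, no gene of the family passed an adjusted p under 0.05 in any tissue or in the mean of the 4 tissues, and no gene on the array did either. With 3 mice against 3, an exact permutation test cannot go below 0.1. The genes tested were 29 in liver, 29 in brain, 33 in heart, 20 in muscle and 36 in the mean. At an unadjusted limma p under 0.05 there were 9 genes in liver (11.7% of all genes tested there), 3 in brain (0.79%), 3 in heart (1.61%), 0 in muscle (0.829%) and 7 in the mean (3.51%). Of these, KI was higher for 8 in liver (7.76% of all genes), 2 in brain (0.429%), all 3 in heart (0.911%) and all 7 in the mean (2.35%). The smallest adjusted p was 0.358 in liver and at least 0.978 in every other fit.

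In liver, 25 of the 29 tested genes had a higher mean in KI, against 56.8% of all genes. KI lay above WT on all arrays for 8 of the 29 tested genes (12.8% of all genes) and below for 1, Ccl9 (7.04%). Cxcl13 was at −0.30, −0.80 and −0.65 in KI and −1.24, −2.08 and −1.70 in WT. KI exceeded WT by 1.09 (SE 0.24, unadjusted p = 0.00337, adjusted p = 0.358 by limma), and the groups did not overlap. Ccl24 was at 0.33, 0.14 and 0.48 in KI and −0.18, −0.24 and −0.42 in WT, a difference of 0.60 (SE 0.14, unadjusted p = 0.0042, adjusted p = 0.358 by limma), again without overlap. Ccl7 was at −2.52, −3.41 and −3.61 in KI and −4.05, −4.80 and −4.00 in WT, a difference of 1.10 (SE 0.35, unadjusted p = 0.0169, adjusted p = 0.397 by limma).

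The other 6 liver genes with an unadjusted p under 0.05 were Cxcr3 (0.68), Ccl3 (0.76), Ccl2 (0.64), Cxcl10 (0.48) and Cxcl16 (0.36), higher in KI, and Cxcl1 (−0.82), lower in KI. Ccl3 was at −3.41, −3.84 and −3.91 in KI and −3.87, −4.93 and −4.65 in WT, so WT mouse D fell within the range of KI. Ccl5 was at 3.37, 2.73 and 1.99 in KI and 2.50, 2.36 and 1.45 in WT, with overlap (difference 0.59, SE 0.41, adjusted p = 0.547). Cxcl9 differed by 0.10 (SE 0.33, adjusted p = 0.909), and by −0.30 without WT mouse F, the liver with the lowest level. Macrophage genes moved with these results: all 11 tested of the 12 listed were higher in KI livers (median difference 0.57, all genes 0.047), and their mean level was 1.07 to 1.25 in KI and 0.34 to 0.63 in WT. The 5 Kupffer cell genes (median 0.72), 7 neutrophil genes (0.70) and 6 fibroblast genes (0.56) were also all higher in KI livers. So were all tested dendritic cell (0.35), platelet (0.30), liver sinusoid (0.26) and red cell genes (0.31), and 7 of 8 hepatocyte genes (0.33). Lymphocyte genes were higher in 5 of 6 (T cell, 0.27), 3 of 4 (B cell, 0.77) and 4 of 5 cases (natural killer cell, 0.21). The endothelial genes were higher in 4 of 7 (0.053), lymphatic endothelial in 3 of 6 (0.026) and mammary epithelial in 4 of 7 (0.22). Lymph node genes were higher in 1 of 3 (−0.14) and neuron genes in 1 of 4 (−0.18). Over all genes tested 56.8% were higher in KI livers. The part of any of these cells in the chemokine levels was not tested. Without KI mouse C, whose liver carried skeletal muscle genes, the differences were 1.13 for Cxcl13, 0.52 for Ccl24 and 1.32 for Ccl7.

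In brain, 21 of the 29 tested genes had a higher mean in KI (43% of all genes), and Ccl25 and Ccl17 had the smallest p. Without KI mouse C, whose brain carried hepatocyte genes and averaged 1.76 over 6 olfactory mucosa genes (no other brain exceeded −1.42), the count was 17 of 29 (54.7% of all genes) and the median difference went from 0.23 to 0.084. KI lay above WT on all arrays for 5 of 29 genes (1.42% of all genes), namely Ccl2, Ccl6, Ccl25, Cxcl12 and Cxcl16, and below for Ccl17 (1.4%). Ccl25 was at 1.71, 1.40 and 1.59 in KI and 0.84, 0.49 and 0.93 in WT, a difference of 0.81 (SE 0.17, unadjusted p = 0.00204, adjusted p = 1.00 by limma), and its second probe gave 0.76. Ccl17 was at −2.08, −2.28 and −2.25 in KI and −1.66, −1.87 and −1.62 in WT, a difference of −0.49 (SE 0.14, unadjusted p = 0.00964, adjusted p = 1.00 by limma). Cxcl16 differed by 0.39 (SE 0.14, unadjusted p = 0.0314, adjusted p = 1.00 by limma). Within slide 1, which held 1 KI and 1 WT brain, the differences were 0.87 for Ccl25 and −0.42 for Ccl17, and within slide 2 they were 0.78 and −0.52. Without KI mouse C they were 0.80 and −0.47. Ccl3 differed by 0.20 (SE 0.15) and Ccl5 by 0.34 (SE 0.29), both overlapping, and Cxcl9 was not tested in brain.

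In heart, 28 of the 33 tested genes had a higher mean in KI (38.6% of all genes), with a median difference of 0.26. Without KI mouse B the count was 22 of 33 (46.9% of all genes) and the median 0.10. The heart of that mouse had a T cell list mean of −0.92 against at most −1.68 in the other hearts and a macrophage list mean of 1.5 against at most 0.99. Of the 12 macrophage genes 11 were higher in KI hearts (median 0.19), against 38.6% of all genes. Their list mean was 0.65 and 0.96 in the hearts of KI mice A and C, and 0.84 to 0.99 in WT hearts. All tested Kupffer cell (0.56), T cell (0.35), platelet (0.23) and red cell genes (0.11) were also higher in KI hearts. Of the endothelial genes 3 of 7 were higher (−0.081). The part of any of these cells was not tested. Ccl11 was at −0.17, −0.69 and −0.38 in KI and −0.84, −0.95 and −0.90 in WT. The difference was 0.49 (SE 0.16, unadjusted p = 0.0209, adjusted p = 0.978 by limma) without overlap, and 0.63 without the heart of KI mouse B. Ccr2 was the other of 2 genes in which all KI hearts lay above all WT hearts (1.9% of all genes; KI below WT in 0, against 2.93%). Ccl17 was at −2.81, −3.65 and −3.17 in KI and −3.53, −3.99 and −4.57 in WT (difference 0.82, SE 0.32, unadjusted p = 0.0362, adjusted p = 0.978 by limma). Ccr6 differed by 1.16 (SE 0.47, unadjusted p = 0.0432, adjusted p = 0.978 by limma), and by 0.64 without KI mouse B, whose heart stood apart. Ccl5 differed by 0.83 (SE 0.47) over all hearts and by 0.27 without that mouse, and Cxcl13 turned from 0.57 (SE 1.75) to −1.58. Cxcl9 was lower in KI by 0.30 on average, with overlapping groups (SE 0.29), and the difference was −0.0055 without KI mouse B.

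In muscle no gene reached an unadjusted p under 0.05, and in 0 of 20 tested genes did the groups separate (2.27% of all genes for KI above and 1.33% for KI below). The smallest p values belonged to Ccr2 (difference 0.60, SE 0.55), Ccl5 (0.71, SE 0.70) and Ccl24 (0.48, SE 0.61), each with overlapping groups. Ccl5 was at −1.39, 1.39 and −0.11 in KI and −0.80, 0.01 and −1.44 in WT. Without KI mouse B, the highest, the difference was −0.0048. Cxcl9 differed by 0.16 (SE 0.52) and by −0.18 without the 2 muscles that carried neutrophil genes. Without those 2 muscles 11 of 23 tested genes were higher in KI (54.3% of all genes), against 14 of 20 with them (56% of all genes). Ccl3 was not tested in muscle.

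Averaged over the 4 tissues of each mouse, 43 of the 48 genes were higher in KI than in WT when no filter was set, against 56.6% of all 21370 genes. The same count was 41 in liver (59.7% of all genes), 33 in brain (50.6%), 33 in heart (39.8%) and 28 in muscle (53.7%). All of these counts include the 8 genes not well above background on any array, whose differences are between background values. Counts within a tissue also include genes not well above background there. Of the 14 genes well above background on every array, all 14 had a higher mean in KI, against 49.3% of the 11620 genes so measured. Genes of a family share cells and regulators and are not independent, and these counts carry no test. Among the 36 tested genes the count was 33, against 53.5% of all genes tested. In the pair of mice aged 14 months 28 of these 36 were higher in KI, and 37 of all 48 (51.6% of all genes). Among the 4 mice aged 15 months 30 of the 36 were higher, and 38 of all 48 (57.5%).

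The genes with an unadjusted p under 0.05 in this mean, named after their values were seen, were Cxcr3, Ccl2, Ccl4, Ccl7, Ccl3, Ccl12 and Ccl5, and all were higher in KI. Of these 7, only Ccl2 and Ccl5 were well above background on all 24 arrays, so the means of the others include values near background. Cxcr3 averaged −3.16, −2.39 and −2.56 in KI mice A, B and C and −3.67, −3.72 and −3.41 in WT mice D, E and F, a difference of 0.90 (SE 0.21, unadjusted p = 0.00491, adjusted p = 0.986 by limma). Ccl2 averaged −0.80, −0.74 and −0.78 in KI and −1.03, −1.16 and −1.14 in WT, a difference of 0.33 (SE 0.079, unadjusted p = 0.00503, adjusted p = 0.986 by limma). Ccl4 averaged −3.56, −2.73 and −3.53 in KI and −3.99, −4.27 and −4.22 in WT, a difference of 0.89 (SE 0.24, unadjusted p = 0.00905, adjusted p = 0.986 by limma). In these 3 genes the lowest KI mouse lay above the highest WT mouse. For Cxcr3 and Ccl4, more than any other tissue, muscle set the size of the difference. Cxcr3 was well above background on 2 of 6 muscle arrays, with means of −3.15 in KI and −5.25 in WT, and Ccl4 on 1 of 6, with means of −4.16 and −6.08, and neither was tested in muscle. The highest muscle level of both was in KI mouse B, which carried neutrophil and T cell genes. These 2 means over 4 tissues therefore rest in part on values at background. Such separation was seen in 9 of the 36 tested genes with KI above (4.83% of all genes) and in 0 with KI below (4.06%). The 12 macrophage genes were all higher in KI in the same mean (median 0.29), against 53.5% of all genes tested. So were all tested Kupffer cell (0.63), T cell (0.55), red cell (0.33), fibroblast (0.25), platelet (0.23), dendritic cell (0.21) and liver sinusoid genes (0.20). Of the hepatocyte genes 7 of 8 were higher (0.54) and of the endothelial genes 4 of 7 (0.029). Neuron genes were higher in 3 of 8 (−0.014). The part of any of these cells in the chemokine levels was not tested.

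**Figure D5:**
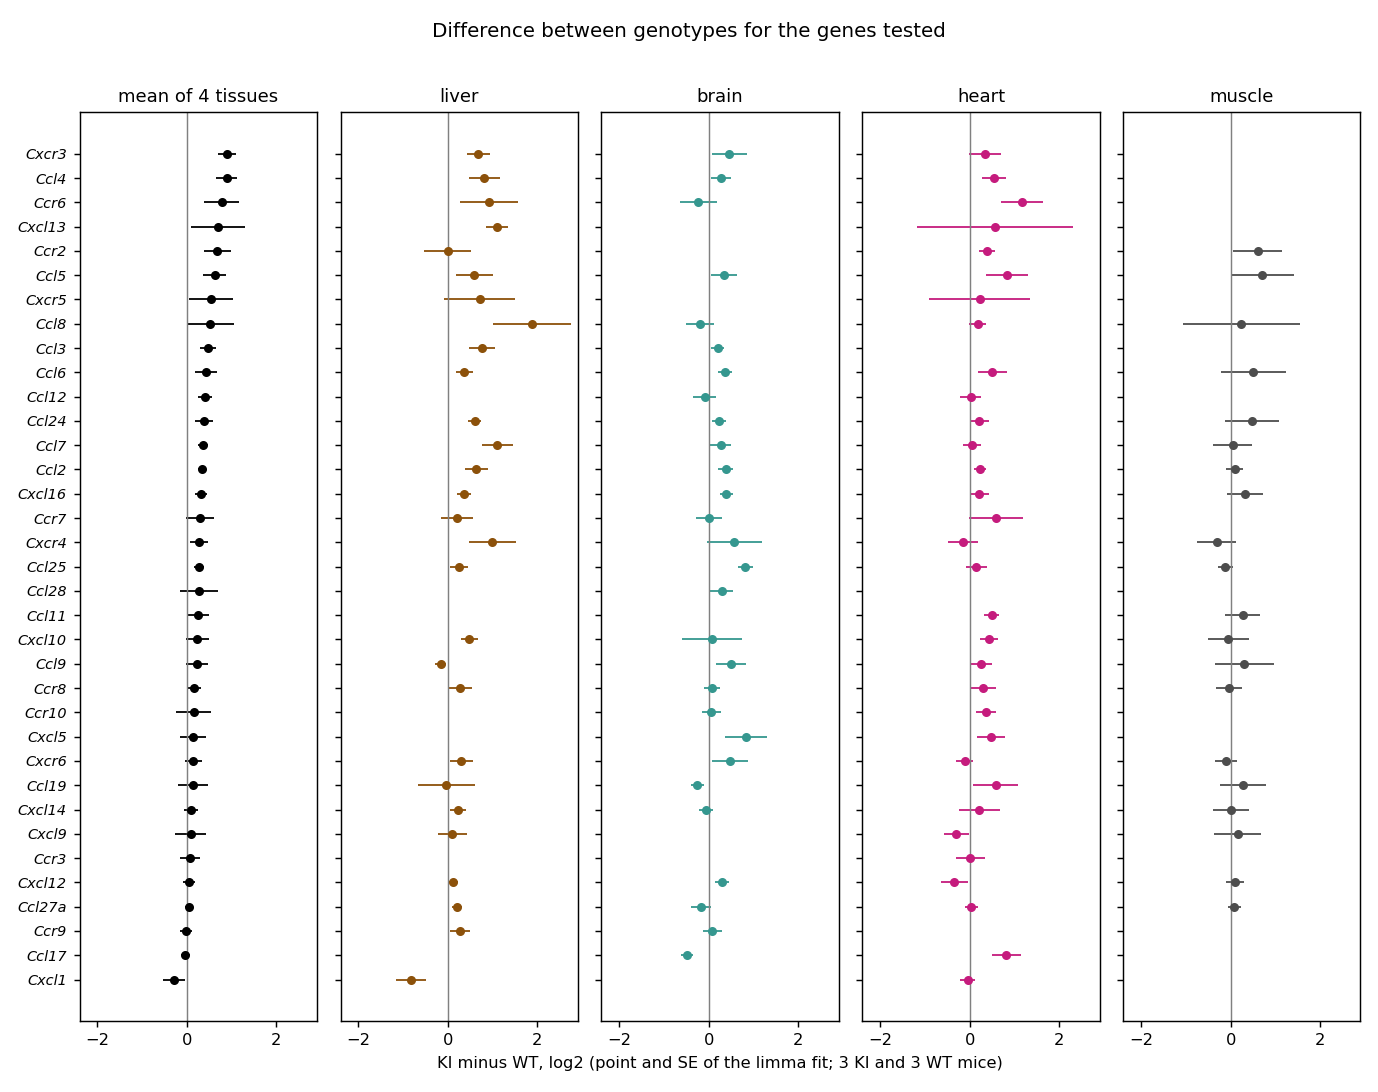
KI minus WT (log2) for 35 of the 36 tested genes in the mean of 4 tissues and in each tissue, with points for the limma estimate and bars for its SE (3 KI and 3 WT mice). Genes are ordered by the mean of 4 tissues, and an empty place means that the gene was not tested in that tissue. Of the 35 genes drawn 32 lie above 0 in the mean, and none passes an adjusted p under 0.05.

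Whether the genotype difference itself varied between tissues was tested by the interaction over 24 arrays. No gene passed after adjustment (smallest adjusted p = 1.00 by limma), and 2 of 36 had an unadjusted p under 0.05 (1.84% of all genes). These were Ccl17 (unadjusted p = 0.0167), which was lower in KI in brain and higher in heart, and Ccl25 (unadjusted p = 0.0285), with KI minus WT of 0.81 in brain and −0.12 in muscle. Ccl17 was well above background on only 2 of 6 liver arrays (KI minus WT −0.89) and 1 of 6 muscle arrays (0.43). Its interaction therefore rests in part on values at background.

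Other genes of chemokine biology were described from lists. Of 16 relatives of the family on the array, 14 were tested. Liver was highest for 3 (22.7% of all genes tested), brain for 3 (21.1%) and heart for 4 (9.39%). The brain genes were Cx3cl1, a membrane-bound neuronal chemokine (6.23 ± 0.16 in brain and 2.16 ± 0.16 in heart, SD, n = 6), its microglial receptor Cx3cr1 (2.92 ± 0.18 in brain and −0.17 ± 0.37 in heart) and the decoy receptor Ackr1. Heart was highest for Ackr3, which removes Cxcl12 (3.50 ± 0.26 in heart and 1.72 ± 0.47 in muscle), for the platelet chemokines Pf4 and Ppbp, and for Cmklr1. In the mean of the tissues 10 of the 14 were higher in KI, against 53.5% of all genes tested (median 0.20, all genes 0.011), and 0 passed the adjusted threshold. In liver, Cx3cr1 was at −0.39, −1.10 and −1.21 in KI and −1.92, −2.38 and −2.35 in WT (difference 1.32, SE 0.25, adjusted p = 0.358).

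Among 36 genes that carry the signal from chemokine receptors, such as G protein subunits, arrestins and Rac activators, 25 were higher in KI in the mean (53.5% of all genes), with a median difference of 0.063 against 0.011 over all genes. The cytokines that induce chemokines were mostly below detection, with 7 of 16 tested in the mean, 6 of them higher in KI (median 0.29), to be read against that same 53.5%. Tnf was well above background on 2 liver and 3 heart arrays and Ifng on 3 liver arrays, 2 brain arrays and 1 array each of heart and muscle, so neither could be compared. No gene of these lists passed the adjusted threshold.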

How the data were processed

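Cy3-labelled RNA was read on single-colour Agilent mouse arrays, 1 per tissue and mouse (24 arrays, 3 KI and 3 WT mice per tissue, 3 slides). The authors deposited each array's processed intensity, background-corrected by Feature Extraction 12.0.3.1, and a table of scores scaled per array, which was used as an alternative. From these, log2 processed intensity minus the array's 75th percentile was computed, probes were named through RefSeq accessions and platform annotation (28341 of 55681 probes), and a gene was tested if 1 group or more had it well above background on each of its 3 arrays. Tests used limma 3.58.1 in R 4.3.3, two-sided, adjusted by Benjamini-Hochberg over all genes tested, at a threshold of 0.05, and the scripts were tested on simulated data. KI was compared with WT within each tissue and in each mouse's mean over 4 tissues, and tissues were compared over all 24 arrays. Genes were named by rule: the 3 of smallest p per tissue, with Ccl3, Ccl5 and Cxcl9, and up to 6 per highest tissue, with Cxcl12, Cxcr4, Ccl2, Ccr2, Cxcl10, Cxcr3, Cxcl14, Cxcl13, Ccl19 and every undetected gene. The members and lists were chosen with earlier results of these data known. Promoters and gene order came from RefSeq on GRCm38.p6, with the first listed start. Replicates are separate mice, and their number limits the precision. Values of 1 tested gene of the family, which is included in the counts, are not reported here.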

Additional observations from a re-analysis of the deposited data

How the results depend on the processing

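The number of family genes past the adjusted threshold between genotypes was 0 in all 87 alternative counts. The number highest in liver (12) was 5 with the slide as a block and 7 to 14 when a mouse was left out. In heart (5) it was 3 with WT arrays only, 2 with the slide as a block and 3 to 5 without a mouse. In muscle (3) it was 1 with the mean of all probes and 1 with the slide as a block. In brain (4) it was 3 with the slide as a block and 3 to 4 without a mouse. Quantile normalization moved the median liver minus brain difference of all genes from 0.23 to −0.06, and the normexp background moved that of brain minus muscle from −0.28 to −0.52. The cause of these changes was not tested.

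These values turned their sign. Ccl3, brain minus liver, was −0.28 with the normexp background. Ccr8, muscle minus liver, was −0.18 with the other probe. Ccl5 in muscle, KI minus WT, was −0.033 without the 2 muscles that carried neutrophil genes, an alternative chosen after seeing the data, and −0.0048 to 1.38 when a mouse was left out, lowest without KI mouse B. Ccr2 in muscle was −0.00199 to 1.01 when a mouse was left out, lowest without WT mouse E. Cxcl9 in liver was −0.0014 with the mean of its probes, −0.10 with the other probe and −0.30 to 0.32 when a mouse was left out, lowest without WT mouse F. Cxcl9 in muscle was −0.14 with the other probe, −0.18 without the 2 muscles, −0.13 without KI mouse C, and −0.20 to 0.80 when a mouse was left out, lowest without KI mouse B. Among 717 alternative values for single genes, 660 kept direction and side of the threshold, 38 lost the threshold, 5 gained it and 12 turned.

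Mice were numbered across tissues. With the mouse as a replicate block, 0 genes passed in the mean and in the interaction, and 12, 4, 5 and 3 genes were highest in liver, brain, heart and muscle. Deviations of the same mouse in a pair of tissues correlated at −0.18 to 0.23 over 36 pairs (median 0.0083, 6 over 0.1), and those of different mice of a genotype at −0.20 to 0.20 over 72 pairs (9 over 0.1). Signal near background limited the dim genes, most of all in muscle.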

Other observations

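Several genes of the family were measured on single arrays that no group shared. Cxcl17, a ligand of mucosal tissues, was well above background in the brain of KI mouse C at −3.02, the heart of KI mouse B at −5.20, and the muscles of KI mouse B at −3.89 and WT mouse D at −3.47. Ccr1, the receptor of Ccl3, Ccl5, Ccl6 and Ccl9 on monocytes and neutrophils, was well above background in the brain of WT mouse F at −5.22 and the muscle of WT mouse D at −2.65. All other arrays gave Ccr1 levels of at most −6.00. Cxcr1 was well above background on 1 liver array only. Beside its hepatocyte genes, the brain array of KI mouse C also had the highest brain level of Ccl9, at −0.60 against −1.99 to −1.78 in the other brains.

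Muscle levels of Ccr10 fell into separate ranges that crossed the genotypes. They were −1.69, −1.96 and −1.66 in KI mouse C and WT mice E and F, and −4.78, −4.29 and −5.62 in KI mice A and B and WT mouse D. Ccr10 overlaps Cntnap1 in RefSeq. In liver, Ccl8, a monocyte ligand, was at −0.31, −0.13 and −1.42 in mice A, B and D and −2.67, −3.48 and −3.84 in C, E and F, which is the division seen in Ccr6, Cxcr5 and Ms4a1.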
